A study of Mus musculus with 8 samples.

Results

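The Usp17l family was examined through its 5 listed copies, Usp17la, Usp17lb, Usp17lc, Usp17ld and Usp17le, among the 55418 genes counted by RNA-seq in mouse E14 embryonic stem cells (ESCs). The copies were chosen by name and not by a cutoff on measured values, but with earlier results of these data known. E14 is a feeder-independent ESC line, labelled here with the strain 12910la, and it was grown on gelatin with serum and 10 ng/ml of the cytokine LIF. Each of 4 groups had 2 libraries: a control group with the genotype label wild type, which carried a hairpin against luciferase by the study's methods, and groups with the short hairpin RNA (shRNA) knockdown of Hira (Hira_KD), of Ubn1 (Ubn1_KD) or of Ubn2 (Ubn2_KD). All 4 groups shared the transfection with 1000 ng of pSuper puro vector and, from 24 h on, 3 days in 1 ug/ml puromycin, so no group was without vector or drug. The labels do not say which hairpin a library carried, or whether the 2 libraries of a group came from separate cultures. P-values therefore measure the spread between these libraries, which may be technical.

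Ubiquitin-specific proteases (USPs) cut ubiquitin from proteins and so can spare them from degradation or alter their signalling. The mouse Usp17l genes, also known by the older name Dub, are near-identical copies in tandem arrays, first described as early genes induced by cytokines in blood cells, and they belong to the genes transcribed in the two-cell embryo and in the rare ESCs that resemble it. Hira, Ubn1 and Ubn2 are subunits of the HIRA chaperone, which deposits the histone variant H3.3 outside of DNA replication.

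The libraries held 19710040 to 32706053 counts. Hira had 1837 and 3104 counts in the control libraries and 331 and 219 counts after its knockdown, a log2 fold change of -3.22. Ubn1 had 1089 and 1402 counts in control and 521 and 620 counts after its own knockdown, with a log2 fold change of -1.03. Ubn2 had 1029 and 1644 counts in control and 655 and 482 counts after its own knockdown, with a log2 fold change of -0.90. All 3 targeted genes fell in the group labelled with them (adjusted p of 5.57e-15, 4.02e-07 and 7.20e-07, edgeR).

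The 5 copies lay on chromosome 7 (GRCm38, GENCODE M21) within 1613 kb. Usp17ld (ENSMUSG00000057321.2, chr7:103249737-103252505, minus strand) and Usp17lc (ENSMUSG00000058976.4, chr7:103415072-103419880, plus strand) formed one pair. Usp17le (ENSMUSG00000043073.10, chr7:104768049-104777470, minus strand), Usp17lb (ENSMUSG00000062369.2, chr7:104840257-104842603, minus strand) and Usp17la (ENSMUSG00000054568.7, chr7:104857009-104862667, plus strand) formed the other group, with 62.8 kb from Usp17le to Usp17lb and 14.4 kb from Usp17lb to Usp17la. A pseudogene, Usp17le-ps, which is not one of the 5 copies, lay 1232 kb from Usp17lc and 115 kb from Usp17le. Its counts were 1 and 0 in control, 0 and 0 after Hira knockdown, 0 and 0 after Ubn1 knockdown, and 4 and 0 after Ubn2 knockdown.

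The copies are so alike that the assignment of reads to one of them is uncertain. Their coding sequences, of 1404 to 1635 bases, were 90.5% to 98.4% identical in pairwise comparison after alignment. Usp17lc and Usp17ld were the closest pair, with 26 differing bases in 1635 aligned bases, and Usp17lb and Usp17le were the most distant. The coding stretch of 60 bases with the most varying positions among the 5 copies (20 of 60) is given here, since it is the kind of sequence by which reads can be told apart. Capitals mark a base that differs from the most common base of the 5 copies at that position.
Usp17la (chr7:104861533-104861592, plus strand): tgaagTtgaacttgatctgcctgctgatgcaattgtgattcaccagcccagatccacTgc
Usp17lb (chr7:104840319-104840378, minus strand): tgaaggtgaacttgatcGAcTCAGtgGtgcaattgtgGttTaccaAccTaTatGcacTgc
Usp17lc (chr7:103418900-103418959, plus strand): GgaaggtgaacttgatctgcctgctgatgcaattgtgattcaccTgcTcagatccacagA
Usp17ld (chr7:103250264-103250323, minus strand): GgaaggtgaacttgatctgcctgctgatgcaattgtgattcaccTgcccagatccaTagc
Usp17le (chr7:104768429-104768488, minus strand): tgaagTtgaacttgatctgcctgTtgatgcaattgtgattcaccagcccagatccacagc
Usp17lb carried 14 such bases in this window, and the other copies 2 to 4. Over whole annotated transcripts, the share of 100-base stretches found in no other annotated gene was 96.2% for Usp17la, 91.8% for Usp17le and 89.7% for Usp17lb. It was 67.7% for Usp17lc and 60.5% for Usp17ld, with 745 stretches of each held by another copy. Counts of Usp17lc and Usp17ld are therefore the least certain as single copies. The sum over the 5 copies does not depend on how reads were divided among them, although reads dropped because they matched several copies would lower it.

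Sequence upstream of the RefSeq start was at hand for 4 copies (GRCm38.p6), and the members share more there than the rule that chose them used. For Usp17lc that start lies inside the GENCODE gene given above (chr7:103415072-103419880), so its stretch is upstream of the RefSeq start only. The stretches given here end just past a TATA-like position. Whether they bear on the levels of the copies was not tested. Capitals mark each ATTGG, the core of a CCAAT box on the opposite strand, and each TATAAA.
Usp17la (chr7:104856872-104856977, plus strand): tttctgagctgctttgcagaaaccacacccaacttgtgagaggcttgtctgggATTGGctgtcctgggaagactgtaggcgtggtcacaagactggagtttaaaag
Usp17lb (chr7:104842607-104842712, minus strand): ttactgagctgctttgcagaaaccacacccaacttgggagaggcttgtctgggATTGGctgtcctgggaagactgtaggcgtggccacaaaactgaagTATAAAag
Usp17lc (chr7:103416510-103416615, plus strand): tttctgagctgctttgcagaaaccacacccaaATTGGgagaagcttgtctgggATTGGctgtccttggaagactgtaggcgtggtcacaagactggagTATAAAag
Usp17ld (chr7:103252608-103252713, minus strand): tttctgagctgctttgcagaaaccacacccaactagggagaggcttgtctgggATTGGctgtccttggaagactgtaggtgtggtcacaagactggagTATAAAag
These stretches of 106 bases were 93.4% to 96.2% identical between copies. In all 4 of them, 40 bases lay between an ATTGG and the TATA-like position. Searched on both strands, ATTGG was present in the RefSeq promoter windows of all 4 copies and in 37.4% of all 32851 windows of the same length. TATAAA was present in Usp17lb, Usp17lc and Usp17ld, and in 13.6% of promoters. ATTGG followed by TATAAA on the gene strand was found in the same 3 copies and in 1.11% of promoters. As the stretches are near-identical, these 3 finds are not independent of each other. They include Usp17ld, for which no rise was shown, and not Usp17la, which rose after Hira and Ubn2 knockdown. The motif of the two-cell transcription factor DUX, written here as TGATT and AATCA with 1 base between them, occurred in none of the 4 windows and in 0.0335% of promoters. A motif this rare is absent from nearly any 4 windows, so its absence says nothing of the family.

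The family was scarce in control ESCs and unequal between the 2 control libraries. Levels are given as CPM, counts scaled to a common library size, after normalization by the trimmed mean of M-values (TMM) over the 8 libraries, and 3 counts corresponded to between 0.0909 and 0.153 CPM. Usp17la, the copy first named Dub1, had 19 and 6 counts in the control libraries, 37 and 40 after Hira knockdown, 21 and 25 after Ubn1 knockdown and 62 and 46 after Ubn2 knockdown. Its mean level was 0.557 ± 0.521 CPM (SD, n = 2) in control, 1.51 ± 0.550 CPM after Hira depletion, 0.960 ± 0.00173 CPM after Ubn1 depletion and 2.60 ± 0.358 CPM after Ubn2 depletion. Each knockdown library lay above both controls, but the first control library, at 0.926 CPM, was close to the Ubn1_KD libraries.

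Usp17lb, once Dub1a, had 10 and 12 counts in control, 64 and 39 after Hira knockdown, 37 and 34 after Ubn1 knockdown and 85 and 72 after Ubn2 knockdown. Its mean was 0.432 ± 0.0776 CPM (SD, n = 2) in control, 1.90 ± 0.0619 CPM in Hira_KD, 1.498 ± 0.270 CPM in Ubn1_KD and 3.79 ± 0.168 CPM in Ubn2_KD. The libraries of a group were at most 1.29-fold apart for this copy, and all knockdown libraries stood well above both controls. Usp17le, once Dub3, had 20 and 9 counts in control, 115 and 67 after Hira knockdown, 35 and 34 after Ubn1 knockdown and 60 and 117 after Ubn2 knockdown. Its mean was 0.629 ± 0.489 CPM (SD, n = 2) in control, 3.33 ± 0.215 CPM in Hira_KD, 1.45 ± 0.205 CPM in Ubn1_KD and 4.37 ± 2.27 CPM in Ubn2_KD. The 2 Ubn2_KD libraries of Usp17le stood 2.16-fold apart, with one of them below both Hira_KD libraries and the other above.

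Usp17lc, once Dub2, had 6 and 7 counts in control, 24 and 26 after Hira knockdown, 10 and 16 after Ubn1 knockdown and 18 and 21 after Ubn2 knockdown. Its mean was 0.256 ± 0.0510 CPM (SD, n = 2) in control, 0.981 ± 0.359 CPM in Hira_KD, 0.536 ± 0.112 CPM in Ubn1_KD and 0.9499 ± 0.172 CPM in Ubn2_KD, so Hira and Ubn2 knockdown gave overlapping levels. Usp17ld, once Dub2a, had 10 and 2 counts in control, 15 and 5 after Hira knockdown, 4 and 4 after Ubn1 knockdown and 2 and 6 after Ubn2 knockdown. Its mean was 0.275 ± 0.300 CPM (SD, n = 2) in control, 0.346 ± 0.154 CPM in Hira_KD, 0.168 ± 0.0204 CPM in Ubn1_KD and 0.199 ± 0.151 CPM in Ubn2_KD, and every knockdown library lay within the range of the 2 controls. In the plot of levels by library, Usp17ld is the copy with no step between control and knockdown.

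**Figure D1:**
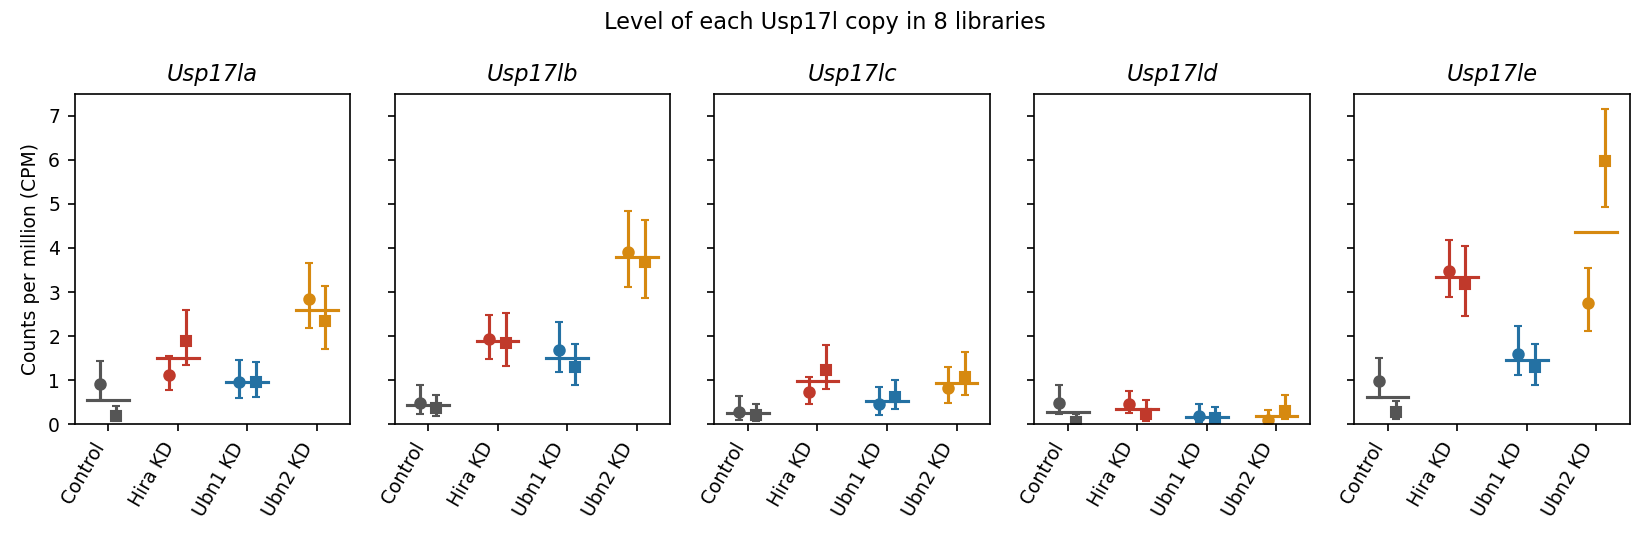
Level of each Usp17l copy in CPM (y axis) in the 2 libraries of each group (x axis). Circles are replicate 1, squares replicate 2, bars the 95% Poisson interval of the count, which covers counting error only, and horizontal lines the group means. Usp17la, Usp17lb, Usp17lc and Usp17le lie above both controls in every knockdown library, and Usp17ld does not.

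Per kilobase of annotated exon, the copies could be compared with each other. Annotated length does not allow for stretches shared between copies, which were most frequent in Usp17lc and Usp17ld. In control ESCs all 5 lay between 0.104 (Usp17lc) and 0.316 (Usp17le) mean CPM per kb, and each neighbour in that order lay within 1 SD of the next. After Hira knockdown Usp17le was highest at 1.68 ± 0.108 CPM per kb (SD, n = 2), followed by Usp17lb at 1.21 ± 0.0396. The libraries of Usp17la at 0.569 ± 0.207 and Usp17lc at 0.400 ± 0.146 overlapped, so these copies could not be ordered. Usp17ld was lowest at 0.174 ± 0.0773 CPM per kb. After Ubn2 knockdown Usp17lb at 2.43 ± 0.108 and Usp17le at 2.20 ± 1.14 CPM per kb could not be ordered, ahead of Usp17la at 0.979 ± 0.135, Usp17lc at 0.387 ± 0.0701 and Usp17ld at 0.100 ± 0.0762 CPM per kb. After Ubn1 knockdown Usp17lb at 0.959 ± 0.173 and Usp17le at 0.731 ± 0.103 CPM per kb were again the highest. Thus Usp17lb and Usp17le, both on the minus strand of the same array, were the most abundant copies per length in every knockdown group.

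Summed over the 5 copies, the family had 65 and 36 counts in control, 255 and 177 after Hira knockdown, 107 and 113 after Ubn1 knockdown and 227 and 262 after Ubn2 knockdown. On the CPM scale the sum was 3.17 and 1.13 in the control libraries, 7.73 and 8.40 in Hira_KD, 4.88 and 4.34 in Ubn1_KD and 10.4 and 13.4 in Ubn2_KD. Every knockdown library exceeded both controls, and the 3 knockdown groups did not overlap each other. The 2 controls were 2.80-fold apart, and their 95% Poisson intervals, 2.44 to 4.04 CPM and 0.793 to 1.57 CPM, did not overlap, so they differed beyond counting error. The gap was carried by Usp17ld (7.74-fold), Usp17la (4.90-fold) and Usp17le (3.44-fold), whereas Usp17lb and Usp17lc were within 1.33-fold. The summed level of the two-cell stage genes listed further on was 25.1 and 21.7 CPM in the controls, but single genes of that list also differed between them, such as Zscan4d at 1.63 ± 1.28 CPM (SD, n = 2) and Zscan4e at 1.01 ± 0.577 CPM.

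Relative to control, the summed level was 3.75-fold higher after Hira knockdown, 2.15-fold higher after Ubn1 knockdown and 5.54-fold higher after Ubn2 knockdown, as the ratio of group means, to which no test was applied. On the log2 scale these ratios were 1.91, 1.10 and 2.47. The SD of the difference between single libraries of the 2 groups was 1.05, 1.06 and 1.08. The Ubn1 value was thus about as large as this SD, which is not the error of a ratio of group means. Set against the first control library alone, the log2 ratios were 1.35 for Hira, 0.54 for Ubn1 and 1.91 for Ubn2, and against the second alone they were 2.83, 2.03 and 3.39. In bulk RNA, more cells that express the family and more of its RNA per cell cannot be told apart.

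**Figure D2:**
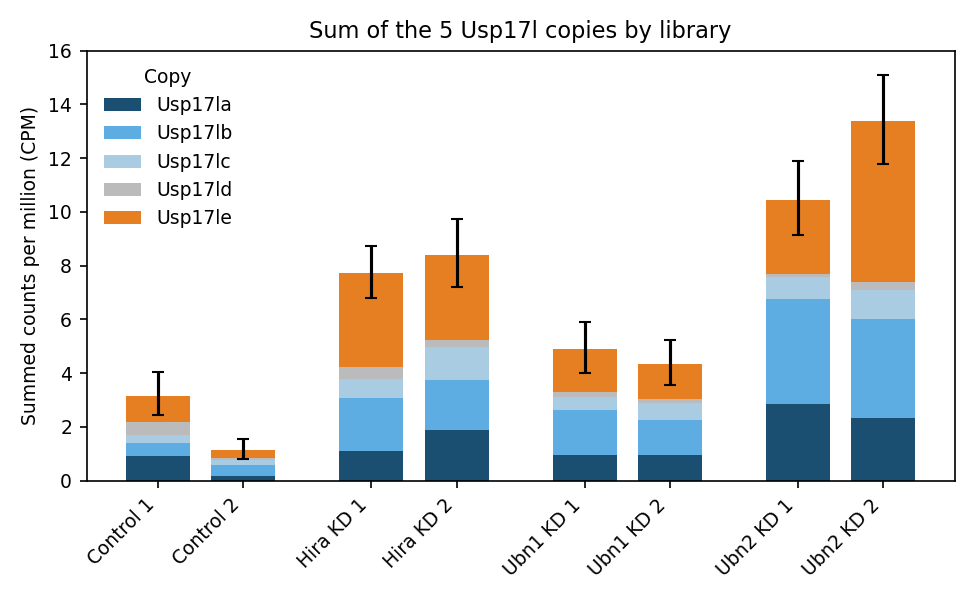
Summed level of the 5 Usp17l copies in CPM (y axis) in each of the 8 libraries (x axis), with bars stacked by copy and the 95% Poisson interval of the summed count on top. The sum is 3.17 and 1.13 CPM in the controls and 4.34 to 13.4 CPM in the knockdown libraries, and Usp17le and Usp17lb make up most of it there.

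The share of each copy in the sum is given from counts pooled within a group. Usp17le gave 28.7% of the family's counts in control (95% exact binomial interval 20.1% to 38.6%, counting error only), 42.1% in Hira_KD (37.4% to 46.9%), 31.4% in Ubn1_KD (25.3% to 37.9%) and 36.2% in Ubn2_KD (31.9% to 40.6%). Usp17lb gave 21.8% in control, 23.8% in Hira_KD, 32.3% in Ubn1_KD and 32.1% in Ubn2_KD. Libraries of 1 group spanned about as much, with Usp17le at 26.4% and 44.7% in the Ubn2_KD libraries and Usp17lb at 15.4% and 33.3% in the controls, so no difference in these shares between groups could be shown. Usp17ld gave 11.9% of the counts in control (6.29% to 19.8%), 4.63% in Hira_KD (2.85% to 7.06%), 3.64% in Ubn1_KD (1.58% to 7.04%) and 1.64% in Ubn2_KD (0.709% to 3.20%). The share of Usp17ld was 15.4% in the first control library and 5.56% in the second, close to the share of 5.88% in the first Hira_KD library. Across the 8 libraries, which share their group structure, Pearson's r of log2(CPM + 0.5) was 0.83 to 0.90 between any 2 of Usp17la, Usp17lb, Usp17lc and Usp17le, and -0.04 to 0.37 between Usp17ld and the others.

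Hira depletion was followed by a rise of 4 of the 5 copies. A gene is called here when its Benjamini-Hochberg adjusted p in edgeR's quasi-likelihood test is under 0.05 and its fold change is over 1.5, and this rule called 10.8% of 19035 tested genes up and 5.40% down after Hira knockdown. Usp17le had the highest estimate, a log2 fold change of 2.51 ± 0.41 (SE, adjusted p = 8.04e-05, edgeR), followed by Usp17lb with 2.13 ± 0.43 (adjusted p = 5.57e-04, edgeR). Usp17lc rose by 1.90 ± 0.56 (adjusted p = 0.0119, edgeR) and Usp17la by 1.52 ± 0.55 (adjusted p = 0.0369, edgeR). For Usp17ld the log2 fold change was 0.55, with a 95% interval from -1.02 to 2.13 that overlaps those of the other copies. Both Hira_KD libraries exceeded both controls for 4 of 5 copies, which was also so for 35.6% of the tested genes. With DESeq2, Usp17la (adjusted p = 0.149) and Usp17lc (adjusted p = 0.0883) were no longer called. Without the second control library, or without the second Hira_KD library, only Usp17lb and Usp17le passed. Usp17le gave 1.75 without the second control library and 3.52 without the first, and Usp17la gave 0.65 and 2.92.

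After Ubn2 depletion all 4 copies that were tested rose, where 9.59% of 18219 tested genes were called up and 8.75% down. Usp17lb rose by a log2 fold change of 3.15 ± 0.36 (SE, adjusted p = 5.76e-07, edgeR) and Usp17le by 2.90 ± 0.44 (adjusted p = 2.40e-05, edgeR). Usp17la rose by 2.36 ± 0.47 (adjusted p = 4.41e-04, edgeR) and Usp17lc by 1.90 ± 0.56 (adjusted p = 0.0104, edgeR). Both Ubn2_KD libraries exceeded both controls for 4 of 5 copies, against 34.7% of the tested genes. Usp17lc was not called by DESeq2 (adjusted p = 0.102), without the second control library (adjusted p = 0.115, edgeR) or without the second Ubn2_KD library (adjusted p = 0.123, edgeR). The log2 fold change of Usp17la was 1.48 without the second control library and 3.74 without the first, and that of Usp17le was 2.14 and 3.91.

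After Ubn1 depletion fewer copies passed the test. Of the 4 tested copies, Usp17lb alone passed, with a log2 fold change of 1.80 ± 0.47 (SE, adjusted p = 0.0157, edgeR), where 1.53% of 18373 tested genes were called up and 1.56% down. Values for the other copies were 1.30 for Usp17le (adjusted p = 0.0994, edgeR), 1.09 for Usp17lc (adjusted p = 0.331) and 0.91 for Usp17la (adjusted p = 0.356), none of them called. For Usp17la the 95% interval was -0.23 to 2.04 and for Usp17lc -0.21 to 2.39, and both included the value of the same copy after Hira knockdown. Usp17le was called without the first control library (2.34, adjusted p = 0.0310, edgeR). Both Ubn1_KD libraries exceeded both controls for 4 of 5 copies, against 26.5% of the tested genes. The call of Usp17lb was lost without the first control library (adjusted p = 0.0639, edgeR), without the second (adjusted p = 0.183) and without the first Ubn1_KD library (adjusted p = 0.0818), and its fold change stayed within 1.60 to 1.98 on the log2 scale. DESeq2 gave no adjusted p for any copy in this comparison.

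The filter on low counts, at 0.382 to 0.466 CPM in 2 libraries against control, was passed by Usp17la, Usp17lb, Usp17lc and Usp17le through both knockdown libraries, and by no copy through both controls. The number of copies that were tested therefore lends no weight to a rise. Usp17ld was tested against control only for Hira, with 1 library of each group over the minimum. Fitted without a filter, its log2 fold change was -0.60 after Ubn1 knockdown, with a 95% interval of -2.72 to 1.53, and -0.39 after Ubn2 knockdown, with an interval of -2.44 to 1.66. The data thus leave room for a change of Usp17ld in either direction.

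**Figure D3:**
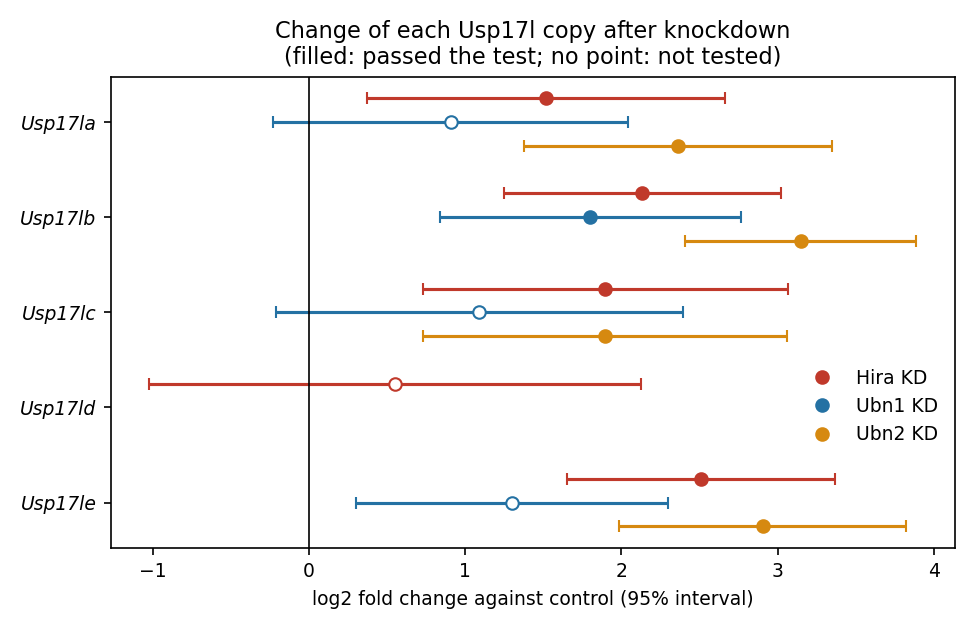
Log2 fold change against control (x axis) of each Usp17l copy (y axis) after knockdown of Hira, Ubn1 and Ubn2. Bars are 95% intervals derived from the F statistic of edgeR's test. Filled points passed the test and open points did not. Intervals of Usp17ld after Hira knockdown and of Usp17la and Usp17lc after Ubn1 knockdown include 0.

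Compared directly, the knockdowns differed for single copies. Between Ubn2_KD and Ubn1_KD, Usp17le was higher in Ubn2_KD by a log2 fold change of 1.58 ± 0.35 (SE, adjusted p = 0.00500, edgeR), Usp17la by 1.43 ± 0.34 (adjusted p = 0.00837, edgeR) and Usp17lb by 1.34 ± 0.29 (adjusted p = 0.00432, edgeR). These were 3 of 4 tested copies, where 4.61% of tested genes were called in this direction. Usp17lc gave 0.80, with a 95% interval of -0.23 to 1.83. Without the first Ubn2_KD library Usp17la lost its call (adjusted p = 0.0899, edgeR), and without the second Usp17le did (log2 fold change 0.93, adjusted p = 0.151, edgeR).

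Between Hira_KD and Ubn1_KD, Usp17le was higher in Hira_KD by 1.21 ± 0.31 (SE, adjusted p = 0.00524, edgeR), 1 of 4 tested copies, where 9.52% of tested genes were called in this direction. The other copies gave 0.83 for Usp17lc, 0.63 for Usp17la and 0.36 for Usp17lb, with 95% intervals that included 0. Between Hira_KD and Ubn2_KD, Usp17lb was lower in Hira_KD, with a log2 fold change of -0.99 ± 0.27 (adjusted p = 0.00995, edgeR), where 5.61% of tested genes were called in this direction. Usp17la gave -0.81, with a 95% interval of -1.54 to -0.09 (adjusted p = 0.0741, edgeR). Usp17le gave -0.37 (-1.02 to 0.29) and Usp17lc 0.02 (-0.94 to 0.98). The call of Usp17lb was lost without the first Ubn2_KD library (adjusted p = 0.0532, edgeR), and Usp17le changed sign with the Ubn2_KD library left out, from -0.83 without the first to 0.28 without the second. Usp17la was called in this comparison without the second Hira_KD library (-1.20, adjusted p = 0.0148, edgeR). In the order of group levels, the copies called between neighbours were Usp17lb between control and Ubn1_KD, Usp17le between Ubn1_KD and Hira_KD, and Usp17lb between Hira_KD and Ubn2_KD, and whether the copies differed from each other in this was not tested.

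Two-cell stage genes, which are transcribed when the embryonic genome first becomes active, moved in the same direction as most copies. Of 58 listed genes in the tables, 24 were tested after Hira knockdown and 21 rose, 21 were tested after Ubn1 knockdown and 15 rose, and 25 were tested after Ubn2 knockdown and 23 rose. Among all genes tested, the shares called up were 10.8%, 1.53% and 9.59%. Of the tested genes of the list, 12, 9 and 14 did not reach the filter's minimum in both controls. As for the copies, the counts and medians are therefore raised by the filter and lend no weight to a rise of the list. No gene of the list fell, by edgeR or by DESeq2, and none was lower at an unadjusted p under 0.05 (0 genes in each knockdown). Their median log2 fold change was 2.04, 1.59 and 2.58, against 0.01, -0.00 and -0.00 over all genes tested. The medians of the tested Usp17l copies were 1.90, 1.19 and 2.63. DESeq2 called 17, 3 and 20 of these genes, and in the Ubn1 comparison gave an adjusted p to only 5 of them. The 3 comparisons used the same controls. Among these genes, Zscan4f, a telomere-associated factor of two-cell-like ESCs, had log2 fold changes of 2.74, 2.16 and 3.11 for Hira, Ubn1 and Ubn2, all called. The pseudogene Zscan4-ps3 rose by 2.67, 2.64 and 3.38, Zscan4a by 1.90, 1.81 and 2.72, and Zscan4c by 2.00, 1.498 and 2.60. Gm5662 rose by 2.05, 1.22 and 2.25, Gm5039 by 2.43, 2.33 and 3.09, and Ddit4l, an inhibitor of mTOR signalling, by 1.70, 0.61 and 1.56. After Ubn1 knockdown the call of Ddit4l was lost without the first control library (0.38, adjusted p = 0.466, edgeR), without the second Ubn1_KD library (adjusted p = 0.0525) and with DESeq2 (adjusted p = 0.1202), and that of Gm5662 without the second control library (adjusted p = 0.0713, edgeR). With single libraries left out, Zscan4a ranged from 1.38 (without the first Hira_KD library) to 2.36 (without the first control library) after Hira and from 1.36 to 2.28 after Ubn1 knockdown, and Gm5039 from 1.86 to 3.06 and from 1.76 to 2.97. In each of these ranges except that of Zscan4a after Hira knockdown, the lower value was that without the second control library and the higher that without the first. Many of these genes are themselves near-identical copies, with the same uncertainty in counting. Gm12794 had no count in control and was at least 14.7-fold higher after Hira and at least 18.8-fold higher after Ubn2 knockdown, taking 3 counts over the 2 controls as the floor. Trim43c did not follow, with 0.17, -0.30 and -0.80, none of them called. Duxf3, the gene annotated for the transcription factor DUX, was too low to be tested, with 1 and 0 counts in control, 8 and 5 after Hira, 1 and 2 after Ubn1 and 5 and 7 after Ubn2 knockdown.

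The other members of the protease family were examined in the same way. Of 50 further ubiquitin-specific proteases, 49 were tested in each knockdown, and their median log2 fold change was -0.05 after Hira, -0.05 after Ubn1 and -0.08 after Ubn2 knockdown. Hira depletion was followed by a rise of 1, Usp26 (0.78, adjusted p = 0.0326, edgeR), and a fall of 3, Usp45 (-0.76), Usp11 (-0.67) and Usp25 (-0.63), where 10.8% of all tested genes were called up and 5.40% down. Ubn1 depletion was followed by a fall of 1, Usp25 (-0.66, adjusted p = 0.0340, edgeR), where 1.56% of all tested genes were called down, and by no rise in edgeR, with 5 genes higher at an unadjusted p under 0.05, while DESeq2 called none. Ubn2 depletion was followed by a rise of 1, Usp27x (0.86, adjusted p = 0.00101, edgeR), and a fall of 7, where 9.59% of all tested genes were called up and 8.75% down. The 3 of these 7 with the smallest adjusted p were Usp28, which acts in the DNA damage response (-0.92), Usp35 (-0.98) and Usp26 (-1.16). Usp26 thus stood on opposite sides after Hira and Ubn2 knockdown, although DESeq2 called neither (adjusted p = 0.148 and 0.115). The call of Usp26 after Hira knockdown was also lost without either control library (adjusted p = 0.121 and 0.0792, edgeR) or the first Hira_KD library (adjusted p = 0.287), and that after Ubn2 knockdown without the second control library (adjusted p = 0.0867) or the second Ubn2_KD library (adjusted p = 0.0788). Usp28 was also lower after Hira (-0.51, adjusted p = 2.54e-05, edgeR) and Ubn1 knockdown (-0.58, adjusted p = 8.94e-05, edgeR), both under the fold set for a call. Usp25 was the only protease of this list called in all 3 knockdowns. DESeq2 did not call it after Ubn1 (adjusted p = 0.118) or Ubn2 knockdown (adjusted p = 0.0928). In edgeR its call was lost after Hira knockdown without the second control library (adjusted p = 0.0629), after Ubn1 knockdown without the first (adjusted p = 0.158) or second control library (adjusted p = 0.180) or the second Ubn1_KD library (adjusted p = 0.0868), and after Ubn2 knockdown without the second Ubn2_KD library (-0.35, adjusted p = 0.243).

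Genes that encode reported substrates of human USP17, which this enzyme acts on as proteins, were looked at for their RNA. Of 11 genes, 10 were tested, and their median log2 fold change was 0.04, -0.00 and 0.21 after Hira, Ubn1 and Ubn2 knockdown. Snai1, a transcription factor of epithelial to mesenchymal transition, rose after Ubn2 knockdown (0.94, adjusted p = 0.00626, edgeR), without a call from DESeq2 (adjusted p = 0.0561). Its values were 0.74 and 0.76 after Hira and Ubn1 knockdown (adjusted p = 0.0626 and 0.0907, edgeR). None of the 10 was called after Hira or Ubn1 knockdown by edgeR or DESeq2, where 5 and 5 had an unadjusted p under 0.05 in edgeR, 4 and 3 of them lower. Cdc25a, the cell cycle phosphatase, gave -0.36 after Hira knockdown with an adjusted p of 0.00147 (edgeR), under the fold set for a call. RNA says nothing of the ubiquitin on these proteins.

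**Figure D4:**
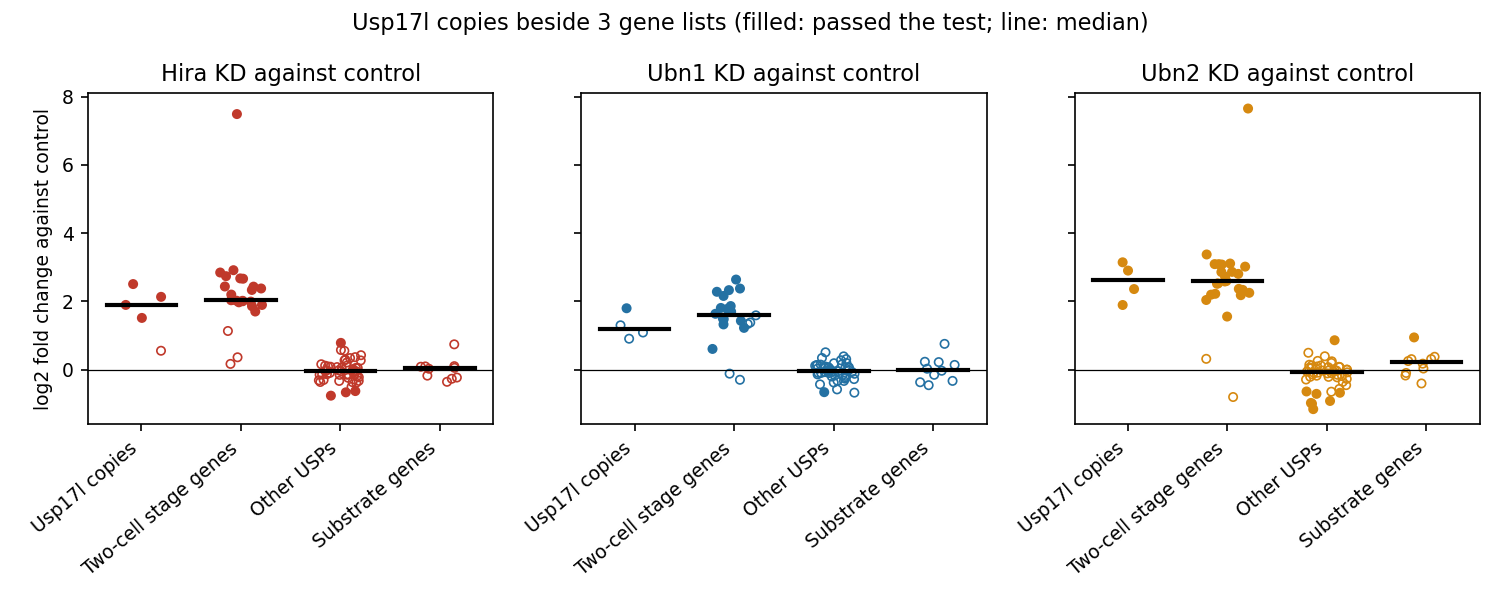
Log2 fold change against control (y axis) of the tested Usp17l copies, two-cell stage genes, other ubiquitin-specific proteases (USPs) and genes of reported substrates (x axis) in the 3 knockdowns. Filled points passed the test, and lines are medians, at 1.90, 2.04, -0.05 and 0.04 after Hira knockdown. The highest point after Hira and Ubn2 knockdown is Gm12794, which had no count in control, so that its height is not a measured fold.

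The genes around the copies were mostly silent. Within 500 kb of a copy, 163 further genes are annotated, many of them olfactory receptors, and 31 of these had any count. Only 4 or 5 were tested in a knockdown, of which 1 was called after Hira, 1 after Ubn2 and none after Ubn1 knockdown (edgeR and DESeq2, with 1 gene higher at an unadjusted p under 0.05 in edgeR). With so few genes tested, these counts cannot be told from the shares over all tested genes. Those were 10.8% called up after Hira, 9.59% after Ubn2 and 1.53% after Ubn1 knockdown (edgeR). Trim12c, a member of the antiviral TRIM gene cluster, had 9.89 ± 0.00884 CPM (SD, n = 2) in control and 21.4 ± 0.281 CPM after Hira knockdown, and rose by 1.10 ± 0.13 on the log2 scale (adjusted p = 2.70e-06, edgeR). It gave 0.34 after Ubn1 and -0.10 after Ubn2 knockdown, neither called, so its order across the groups was not that of the Usp17l sum. Hbb-bs, an adult beta-globin gene, had no count in control and 75 and 45 counts after Ubn2 knockdown, at least 50.1-fold higher with 3 counts over the 2 controls as the floor. Trim34b gave 0.42, 0.48 and 0.47, Gm27995 gave 0.92, -0.30 and -0.62, and Gm5900 gave -0.52, -0.16 and 0.02, with no call.

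Among 16063 genes with a mean of at least 1 CPM, the 5 whose log2(CPM + 0.5) was most like that of the Usp17l sum over the 8 libraries were Ino80c (Pearson's r = 0.996), Egfl6 (0.987), 2410131K14Rik (0.980), Bcl7b (0.980) and Slc4a8 (0.979). These values are descriptive, since the libraries fall into 4 groups and the genes were picked for them. Egfl6, a secreted protein with EGF repeats, was the only one with a range like that of the family, at 0.859 ± 0.370 CPM (SD, n = 2) in control, 3.01 ± 0.312 in Hira_KD, 1.59 ± 0.134 in Ubn1_KD and 3.90 ± 0.764 CPM in Ubn2_KD. Ino80c, a subunit of the INO80 chromatin remodeller, ran from 19.2 ± 3.06 CPM in control through 24.1 ± 1.54 in Ubn1_KD and 27.6 ± 0.119 in Hira_KD to 31.4 ± 1.54 CPM in Ubn2_KD. No gene of the two-cell list was among these 5, but many genes of that list were too low to be ranked. Their absence therefore does not show how closely that list followed the sum.

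Markers of other cell types were checked, since they could move with the groups. The 8 ESC markers summed to 5272 and 5463 CPM in control and to 4682 to 5106 CPM in the knockdown libraries. Only Dppa5a after Ubn2 knockdown was called (-0.59, adjusted p = 1.21e-06, edgeR). Under the fold set for a call, at an adjusted p under 0.05 (edgeR), Dppa5a was also lower after Hira (-0.52) and Ubn1 knockdown (-0.54). Tfcp2l1 (-0.55) and Pou5f1 (-0.31) were likewise lower after Hira knockdown, and Klf4 (-0.58) after Ubn2 knockdown. Higher at that level were Nanog (0.31) after Hira knockdown, and Esrrb (0.27) and Tfcp2l1 (0.21) after Ubn2 knockdown. The 6 muscle markers summed to 12.9 and 13.4 CPM in control, 9.88 and 10.6 in Hira_KD, 9.40 and 14.2 in Ubn1_KD, and 261 and 164 CPM in Ubn2_KD, where 5 of 6 rose and 1 fell. Ubn2_KD was also the group with the highest Usp17l sum, at 10.4 and 13.4 CPM in these 2 libraries. Whether the muscle markers and the sum go together was not tested. The 6 blood markers, of interest because Dub genes were first found in blood cells, summed to 16.3 and 19.0 CPM in control, 32.8 and 29.5 in Hira_KD, 16.1 and 20.6 in Ubn1_KD and 27.0 and 23.0 CPM in Ubn2_KD. After Hira knockdown 2 of 3 tested were called up, Il3ra (0.98) and Il2rg (0.85). After Ubn2 knockdown 3 of 5 tested were called up, Il2rg (0.83) and 2 globin genes. Of these, Hbb-bs had no count in control and 75 and 45 in Ubn2_KD, and Hba-a1 had 1 and 0 in control and 57 and 21. Ptprc, which defines white blood cells, had at most 3 counts in any library. The 6 fibroblast markers summed to 20.2 and 20.7 CPM in control, 29.4 and 31.8 CPM in Hira_KD, 16.3 and 20.6 CPM in Ubn1_KD and 23.8 and 27.4 CPM in Ubn2_KD. Of 2 tested after Hira knockdown, 1 was called up. Of 5 tested after Ubn2 knockdown, 3 were called up and 1 down, and Col3a1 rose from no count to 147 and 81. Trophoblast markers summed to 11.2 to 18.2 CPM and primitive endoderm markers to 9.04 to 16.96 CPM over all libraries. Of the 6 trophoblast markers, 4 were tested after Hira and 4 after Ubn2 knockdown, and 2 rose in each. Of the 6 primitive endoderm markers, 1 rose after Hira and 2 fell after Ubn1 knockdown. For scale, 10.8%, 1.53% and 9.59% of all tested genes were called up after Hira, Ubn1 and Ubn2 knockdown. The shares called down were 5.40%, 1.56% and 8.75%. The part of these cell types in the Usp17l levels was not tested.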

How the data were processed

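RNA was sequenced from 8 libraries of E14 ESCs in 4 groups of 2. Per the labels and the study's methods, the authors trimmed paired-end reads with Trim Galore, used STAR for alignment to GRCm38 and obtained gene counts from featureCounts. Versions, strandedness and the treatment of reads that match several genes are not given in the sources used here, and the treatment of such reads bears on near-identical copies. The deposited values are raw counts of 55418 genes in 3 tables, each with 1 knockdown beside the controls, and the control columns of the tables were identical (0 differing values). The study's methods test with DESeq2, which served here as an alternative.

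Genes were filtered with filterByExpr, scaled by TMM and tested over all genes with edgeR 4.0.16 (glmQLFit, glmQLFTest, R 4.3.3) in each of 6 comparisons of 2 groups, with Benjamini-Hochberg adjustment. DESeq2 1.42.0 was run on the same counts. Intervals of edgeR fold changes are fold change ± a t quantile times the SE. Levels are CPM with TMM factors of all 8 libraries, which ranged from 0.970 to 1.06, and the sum of the copies was given no test. Poisson and binomial intervals are exact, at 95%, and cover counting error only. Coding sequences were aligned with MAFFT 7.526. Scripts were tested on simulated data. Named genes were the 5 copies, the targeted genes, the 5 most similar genes and, per list and knockdown, up to 4 called genes with the smallest adjusted p. Trim43c, Gm12794, Duxf3, Cdc25a, Dppa5a, Zscan4d, Zscan4e, Col3a1, Ptprc and the uncalled flanking genes were named after their values were seen. So were the other ESC and blood markers given singly. The copies and all gene lists were chosen with earlier results of these data known. Alternatives were DESeq2, its size factors, no filter, a minimum of 10 counts per library, a joint fit of the 8 libraries, the replicate number as a block, each library left out, and the adjusted p alone.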

Additional observations from a re-analysis of the deposited data

How the results depend on the processing

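The number of called copies depended on the processing. After Hira knockdown it was 4, and it was 2 with DESeq2, 1 with at least 10 counts in every library (a filter that left only Usp17lb to test) and 2 to 4 when single libraries were left out. After Ubn2 knockdown it was 4, and it was 1 with that filter, for the same reason, and 3 to 4 with single libraries left out. After Ubn1 knockdown it was 1, and it was 2 without a filter on low counts, where Usp17le was also called, and 0 to 1 with single libraries left out. Between Hira_KD and Ubn2_KD it was 1, and it was 2 without a filter, where Usp17la was also called, and 1 to 2 with single libraries left out. The direction changed in 3 cases, each with single libraries left out. Usp17ld after Hira knockdown ranged from -0.45 to 2.41 on the log2 scale, Usp17lc between Hira_KD and Ubn2_KD from -0.37 to 0.39, and Usp17le in the same comparison from -0.83 to 0.28. The genes called over the 4 lists after Ubn1 knockdown were 16, and 3 with DESeq2, which gave an adjusted p to 64 of the genes on these lists. Over all genes, 282 rose and 286 fell after Ubn1 knockdown, against 161 and 136 with DESeq2 and 172 and 178 without the first control library, and 840 were higher and 744 lower in Ubn2_KD than in Ubn1_KD, against 525 and 483 with DESeq2. The cause of these differences was not tested except where stated. DESeq2 gave no copy an adjusted p after Ubn1 knockdown, so that alternative has no value there.

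The replicate numbers were not shown to pair the libraries, since libraries with the same number deviated from their groups with correlations of only -0.0985 to 0.0978 over 19264 genes. With the replicate number as a block, 2 copies were called after Ubn1 knockdown, as Usp17le passed (1.36, adjusted p = 0.0394, edgeR), and the number called stayed the same in the other 5 comparisons. For the sum, the log2 ratios of same-numbered libraries averaged 2.09 after Hira knockdown, 1.28 after Ubn1 knockdown and 2.64 after Ubn2 knockdown. The log2 ratios of group means were 1.91, 1.10 and 2.47. With 2 libraries per group, such an average is the same for any pairing of the libraries. The gap therefore comes from averaging logs instead of CPM, and no block was fitted to the sum. Other scalings moved the ratios of group means by less than the SD of the difference between single libraries given above. At the depth of these libraries, copies with under 10 counts, above all Usp17ld, allow no statement on small changes.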
